A study of Mus musculus with 8 samples.

Results

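The Phlda1 locus was taken as all H3K27ac peaks within 100 kb of the RefSeq interval of Phlda1 on mouse chromosome 10 (111506286 to 111508649, build mm10). In the 4 peak lists this rule found 133 peaks, which merged into 55 union regions out of 82792 in the genome (peaks overlapping by 1 bp or more were joined). H3K27ac is acetylation of lysine 27 of histone H3, measured here by chromatin immunoprecipitation and sequencing in E14tg2a mouse embryonic stem cells of strain background 129SV, which stably express cRAF-ErT2. In this fusion the kinase of RAF is held inactive by a hormone-binding domain until 4-hydroxytamoxifen (4OHT) is added. All groups had been in serum, LIF and 2 uM Chir99021, a GSK3 inhibitor, and then for 24 h in serum and LIF with 250 nM PD173074, which blocks the kinase of FGF receptors. Clone a and clone b were each left untreated (2 libraries) or given 250 nM 4OHT for 2 h (2 libraries). No vehicle control is named in the labels, so effects of 4OHT itself and of RAF activation cannot be told apart, and 2 clones of 1 line are all the replication there is. Where a pair of values is given for a treatment, clone a comes first.

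The locus was chosen because earlier results of these lists showed regions gained there after 4OHT. The values below that compare treated with untreated cells at Phlda1 are therefore a description, given with no test. Peak lists hold no read counts, so depth is unknown and a missing peak does not show that the mark was absent. In bulk chromatin, more cells carrying the mark and more mark per cell cannot be told apart. The lists held 59170 to 63276 peaks covering 50.4 to 53.1 Mb each. As a check of the cell type, 8 of 8 stem cell genes, Pou5f1, Sox2 and Nanog among them, had peaks within 1 kb of the gene in every library. Of 6 fibroblast genes 1 did in each untreated library and 2 in each treated library (Col1a1 in all, Twist1 in treated ones), and Col1a2, Col3a1, Thy1 and S100a4 had none. The summed length over the 6 was 0.657 and 0.717 kb untreated and 2.43 and 2.91 kb treated, and its part in the results was not tested. Of 4 genes of differentiated tissues 1, Cd3e, had a peak in every library.

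Phlda1 encodes a protein with a pleckstrin homology-like domain and is an immediate-early gene, one whose transcription growth factors induce within minutes through RAF, MEK and ERK without new protein synthesis. ERK phosphorylates transcription factors at such genes, among them ETS factors that bind with serum response factor. H3K27ac is written by the acetyltransferases p300 and CBP and is found at active promoters and enhancers. It does not by itself show that a region acts as an enhancer or on which gene, and neither activity, contact with the promoter nor Phlda1 transcription was measured in these data.

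Phlda1 lies at one end of a long stretch without other protein-coding genes. On the side of lower coordinates Nap1l1, which encodes a histone chaperone, ends 8.14 kb away, and the next protein-coding gene, Bbs10, is 204.6 kb away. On the side of higher coordinates the nearest protein-coding genes are Krr1 at 464 kb and Glipr1 at 477 kb. Within 200 kb lie 12 other annotated genes, of which Nap1l1 alone is protein-coding and 9 are long noncoding RNA genes. Gm30193 (61.2 kb), Gm30262 (74.4 kb), 4933440J02Rik (78.1 kb), Gm40763 (123 kb) and Gm30624 (176 kb) lie on the higher side. Gm30145 (128 kb), Gm40761 (159 kb), Gm40760 (190 kb) and Gm30095 (192 kb) lie on the lower side, as do the snoRNA gene Gm25117 (24.7 kb) and the pseudogene Gm5176 (4.94 kb).

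The promoters of 3 of these noncoding genes lay inside the part of the locus that changed, and 4 of their RefSeq windows (build GRCm38.p6, with the same coordinates as mm10; 250 bases before to 50 after a start, on the strand of the gene) are shown because peaks covered them in treated cells. Capitals mark matches to the motifs searched on both strands: AP-1 (TGANTCA), CRE (TGACGTCA), ETS (CCGGAA, seen as its reverse complement in 4933440J02Rik), the TATA box (TATAAA) and the CArG box of serum response factor, by its name.
Gm30193 (minus strand, chr10:111573707-111574006): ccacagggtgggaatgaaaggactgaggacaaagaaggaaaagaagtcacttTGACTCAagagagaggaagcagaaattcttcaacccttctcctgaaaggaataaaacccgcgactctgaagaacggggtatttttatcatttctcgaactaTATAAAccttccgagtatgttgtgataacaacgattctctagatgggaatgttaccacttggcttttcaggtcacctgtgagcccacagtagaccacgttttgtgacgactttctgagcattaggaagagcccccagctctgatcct
Gm30262 (plus strand, chr10:111593818-111594117): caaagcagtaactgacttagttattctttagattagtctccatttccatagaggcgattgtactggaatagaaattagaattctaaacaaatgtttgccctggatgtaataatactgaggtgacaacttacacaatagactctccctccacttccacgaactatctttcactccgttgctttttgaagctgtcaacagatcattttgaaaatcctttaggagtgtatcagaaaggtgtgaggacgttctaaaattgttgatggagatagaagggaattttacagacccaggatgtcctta
4933440J02Rik (minus strand, chr10:111594224-111594523): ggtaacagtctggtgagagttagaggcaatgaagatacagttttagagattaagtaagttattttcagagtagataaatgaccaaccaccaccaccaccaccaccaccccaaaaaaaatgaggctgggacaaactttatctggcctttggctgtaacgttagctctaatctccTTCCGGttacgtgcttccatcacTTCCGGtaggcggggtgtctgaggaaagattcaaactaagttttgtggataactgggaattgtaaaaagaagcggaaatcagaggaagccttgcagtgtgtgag
Gm30262, another start (plus strand, chr10:111595422-111595721): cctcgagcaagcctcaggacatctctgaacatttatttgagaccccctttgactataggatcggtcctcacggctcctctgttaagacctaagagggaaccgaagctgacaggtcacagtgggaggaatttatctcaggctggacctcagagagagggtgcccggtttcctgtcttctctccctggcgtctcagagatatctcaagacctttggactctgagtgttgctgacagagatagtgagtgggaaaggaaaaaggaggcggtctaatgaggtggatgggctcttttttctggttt

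Gm30193 held an AP-1 and a TATA match, and 4933440J02Rik held 2 ETS matches. No match overlapped another. Of 32851 RefSeq promoters of the same length, 7.81% held the AP-1 motif, 14.9% the ETS motif, 13.6% the TATA box, 1.79% the CRE and 1.63% the CArG box. The 10 promoter windows available for the locus belong to 4 genes, Nap1l1, Gm30193, Gm30262 and 4933440J02Rik, and partly overlap. Phlda1 had no window among them, so its own promoter was not searched. Of these 10 windows, AP-1, ETS and TATA matches were in 1 each and CRE and CArG matches in 0. These are matches of letters, and they say nothing of whether a factor was bound.

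The printed windows were picked for their cover in treated cells, so their values are a description. In the Gm30193 window peaks covered 188 and 213 of 300 bases untreated and all 300 in both treated clones. In the 4933440J02Rik window they covered 0 and 31 bases untreated, and 223 and 300 bases treated. The Gm30262 windows printed above were covered by 0 bases in both untreated clones and by all 300 in both treated clones. Its window at 85.191 kb, which overlaps a printed one, had the same values. Its windows at 74.152 and 74.159 kb had 77 and 84 bases covered in treated clone a and 0 in the other libraries. Those at 90.8 and 94.2 kb had 0 in every library. In all, 3 of the 10 windows, all of them starts of Gm30262 and 2 of them overlapping, were touched in both treated and in no untreated library, as were 1.98% of promoters in the genome.

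After 2 h of 4OHT the length covered by peaks within 100 kb of Phlda1 was 2.46 times that in untreated cells. It was 14.9 kb in untreated clone a, 17.4 kb in untreated clone b, 38.1 kb in treated clone a and 41.3 kb in treated clone b. Both treated libraries were above both untreated ones, as at 31.0% of the 21887 protein-coding genes. The means were 16.2 ± 1.76 kb untreated and 39.7 ± 2.24 kb treated (SD, n = 2 clones). Within clones, covered length was 2.56 times as long in clone a and 2.37 times in clone b. On the scale log2(covered bp + 500) the change was 1.27, with 1.33 in clone a and 1.22 in clone b. Apart from genes whose window shares bases with that of Phlda1, such as Nap1l1, a rise at least as large was found at 8 protein-coding genes. These fall into 5 separate windows, and windows of longer genes are longer, which was not corrected for.

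Most of the added length lay on one side of the gene. On the higher-coordinate side, away from Nap1l1, peaks covered 5.24 and 7.39 kb of the 100 kb untreated and 24.4 and 29.5 kb treated. That side held 87.7% of the rise. Over the gene itself 0 and 1.02 kb were covered untreated and 2.03 and 1.98 kb treated, which is 6.33% of the rise. On the lower side the values were 9.67 and 8.99 kb untreated and 11.7 and 9.81 kb treated, 5.97% of the rise. From 30 to 100 kb on that lower side the treatments overlapped, at 7.93 and 8.20 kb untreated against 8.42 and 7.74 kb treated.

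**Figure D1:**
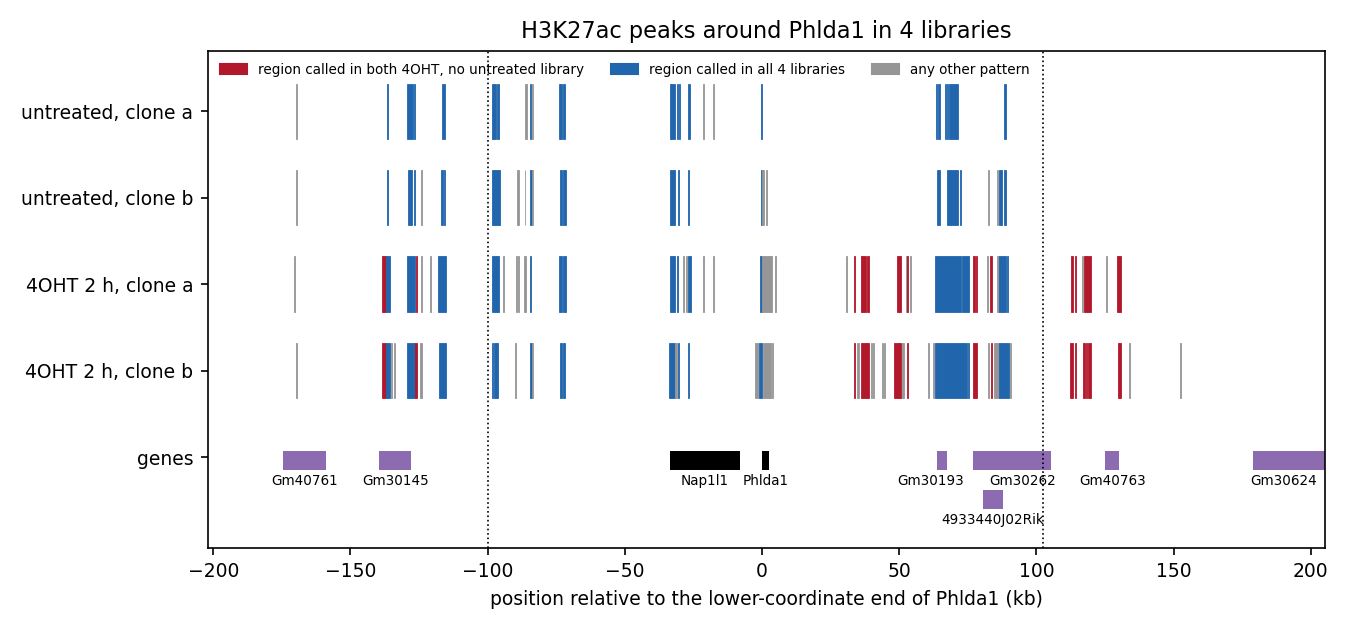
Peaks of the 4 libraries (rows) by position relative to the lower-coordinate end of Phlda1 (kb), coloured by the calls of the union region they belong to, over protein-coding (black) and long noncoding (purple) genes; Gm40760, Gm30095, Gm25117 and Gm5176 are not drawn. Dotted lines mark 100 kb from the gene. Red regions, called in both treated and no untreated library, lie on the right of the gene, among them 9 within the dotted line and 7 beyond it; 2 lie left of the left dotted line.

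The 55 regions fell into patterns of calls that leaned to treated cells. Peaks of treated libraries alone made up 34 regions (61.8%, against 22.04% of all union regions), and peaks of untreated libraries alone made up 1 (1.82%, against 22.9%). Of the 34, 27 lay on the higher side and 7 on the lower side. Regions called in both treated and in no untreated library, termed gained, numbered 9, and regions with the opposite pattern, termed lost, numbered 0. Over the genome 6.20% of union regions were gained and 6.26% lost. Another 9 regions were called in treated clone a alone and 16 in treated clone b alone, so 25 of the 34 (73.5%) were called in 1 clone alone, against 71.9% of all regions called in treated libraries only. Regions called in all 4 libraries numbered 10 (18.2%, against 36.4% of all union regions). Taken singly, clone a had 23 of 38 regions called with 4OHT and not without it (60.5%, against 20.2% over the genome) and 2 the other way round (5.26%, against 22.7%). Clone b had 25 of 43 (58.1%, against 23.0%) and 3 (6.98%, against 21.9%).

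All 9 gained regions lay on the higher side, 31.1 to 80.8 kb from Phlda1, over a span of 50.4 kb. They were 298 to 1755 bp wide, with a median of 615 bp, against 527 bp for all gained regions. Their peaks covered 6.23 kb in treated clone a and 7.56 kb in treated clone b. To place them within their lists, each peak was given the percentile of its score, the authors' own value with no stated scale, among the peaks of its library. The median was 53.4 in treated clone a and 63.9 in treated clone b, against 33.7 and 38.1 for all gained regions. In each clone 6 of 9 lay above that median of all gained regions, not far from the even split that a median gives.

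The gained regions nearest to the gene form a group of 4 that start 31.1 to 35.6 kb away. At 31.1 kb (chr10:111539725-111540318) peaks covered 594 bp in treated clone a and 400 bp in treated clone b, at percentiles 63.0 and 63.9. At 33.5 kb a region of 298 bp was weak in both, at 20.04 and 12.7. The widest of the group, at 34.1 kb (chr10:111542735-111544077), had 1145 and 1343 bp at percentiles 80.5 and 82.8, the highest among the 9 in clone a. Next to it, at 35.6 kb, lay 801 and 1031 bp at percentiles 63.3 and 68.0. No untreated library had a peak within 60 kb of the gene on this side.

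A second group of 3 gained regions started 45.9 to 50.5 kb away, and here the clones differed. At 45.9 kb (chr10:111554501-111556255) the peak covered 616 bp at percentile 0.647 in treated clone a and 1755 bp at 69.8 in treated clone b. It was thus among the weakest peaks of its list in clone a. At 47.7 kb the peaks were 587 and 603 bp at percentiles 53.4 and 84.1, the latter the highest of the 9 in clone b. At 50.5 kb they were 326 and 436 bp at 27.1 and 0.707. Between 30 and 60 kb treated clone b had 15 peaks over 8.57 kb and treated clone a 9 peaks over 5.06 kb.

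The largest change in length came from a region that untreated cells already carried. It spans 12405 bp, 60.5 kb from Phlda1 and across Gm30193 (chr10:111569183-111581587), and was called in all 4 libraries. Untreated clone a had 5 peaks there covering 4765 bp and untreated clone b 3 peaks covering 5052 bp. Treated clone a had 2 peaks covering 12115 bp and treated clone b 3 peaks covering 12055 bp. Both edges of the region are edges of treated peaks, so nearly full cover in treated cells follows in part from the merging. In untreated cells peaks covered a shorter part of the region, with a longest peak of 3.02 kb in clone a and 3.89 kb in clone b. Among 30131 regions called in all 4 libraries, this one had the 2nd largest rise in covered length. The widest peak in it was 9.73 kb in treated clone a and 9.88 kb in treated clone b, the 74th and 48th widest of their whole lists. Its score percentile was 98.7 and 98.9 in treated clones a and b, and the best peak of the region stood at 84.2 and 91.1 in untreated clones a and b.

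Gained regions also flanked that block on its far side. At 74.4 kb (chr10:111583024-111584549), at the lower-coordinate end of Gm30262, peaks covered 1306 and 1303 bp in treated clones a and b, at percentiles 42.0 and 52.7. At 80.8 kb, where Gm30262 and 4933440J02Rik overlap, they covered 572 and 405 bp at 53.4 and 14.0. A further region there, at 83.1 kb, had 0 and 461 bp untreated and 743 and 782 bp treated, so untreated clone b alone kept it from being called gained. At 84.0 kb (chr10:111592640-111596259), over the starts of 4933440J02Rik and Gm30262, all 4 libraries had peaks, of 473 and 1615 bp untreated and 2906 and 3620 bp treated. Its percentiles were 9.63 and 65.7 untreated and 78.0 and 90.5 treated. From 60 to 90 kb as a whole, 17.5% and 24.6% of bases were covered in untreated clones and 59.5% and 66.3% in treated ones, 53.3% of the rise at the locus.

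**Figure D2:**
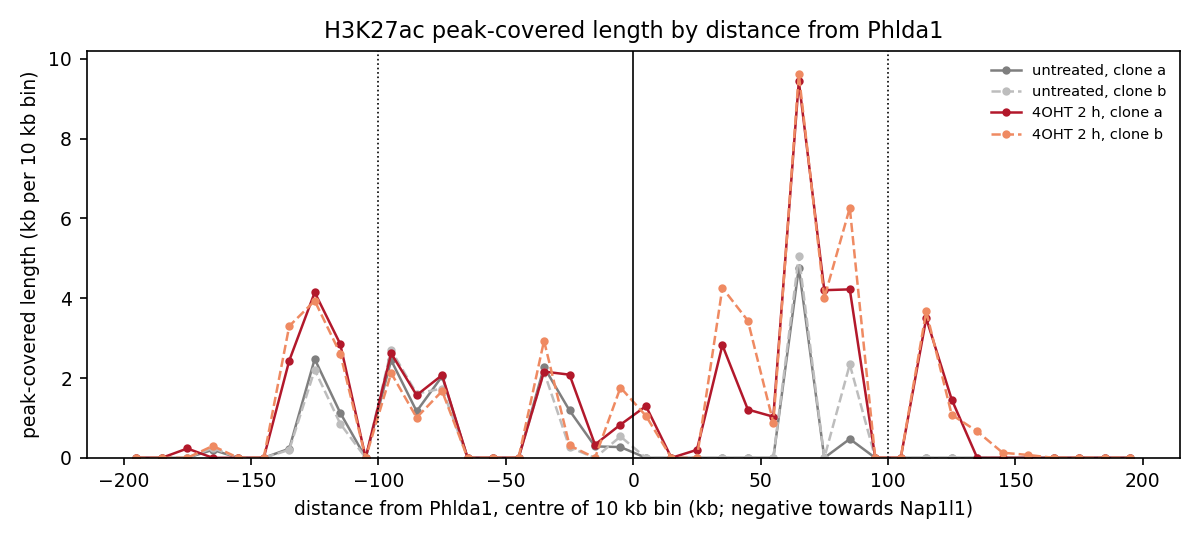
Length covered by peaks (kb) in each 10 kb bin of distance from the Phlda1 interval, negative towards Nap1l1, for each library as a line. Dotted lines mark 100 kb. Both treated lines stand above both untreated ones in the bins next to the gene (-5 and 5 kb), in those centred from 35 to 85 kb, at 115 and 125 kb, and from -135 to -115 kb, and the lines cross between -95 and -75 kb.

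At Phlda1 itself peaks were called in untreated cells too, and they covered more of the gene in treated ones. A region ending 7 bp before the lower end of the gene (chr10:111505306-111506279) was called in all libraries, with 270 and 535 bp untreated and 831 and 952 bp treated. The treated values were above the untreated ones, as in 27.3% of all regions called in every library. Within the gene, a region of 900 bp had 0 and 696 bp untreated and 885 and 847 bp treated. A second one, which reaches past the higher end, had 0 and 325 bp untreated and 1767 and 1962 bp treated. Both were absent from untreated clone a and present in untreated clone b, so neither was called gained. Their percentiles were 60.4 and 10.3 in untreated clone b, 87.0 and 80.5 in treated clone a, and 88.9 and 88.1 in treated clone b. Over the gene and 5 kb on either side peaks covered 0.270 and 1.56 kb untreated and 4.15 and 4.79 kb treated.

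The next gene, Nap1l1, showed less. The region over its start (chr10:111472382-111474515) had 1720 and 1711 bp untreated and 1836 and 2134 bp treated. Within Nap1l1 a region 29.8 kb from Phlda1 went the other way, at 785 and 443 bp untreated and 325 and 310 bp treated. At 25.9 kb the treatments overlapped, at 669 and 262 bp untreated and 1159 and 311 bp treated. Of the 10 regions of the locus called in all libraries, 5 had more covered bases in both treated than in both untreated libraries and 2 had fewer, against 27.3% and 21.5% of all such regions in the genome. Nap1l1 counts 10 gained regions within its own 100 kb window, but that window shares the higher-side peaks with Phlda1 and is no separate result.

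**Figure D3:**
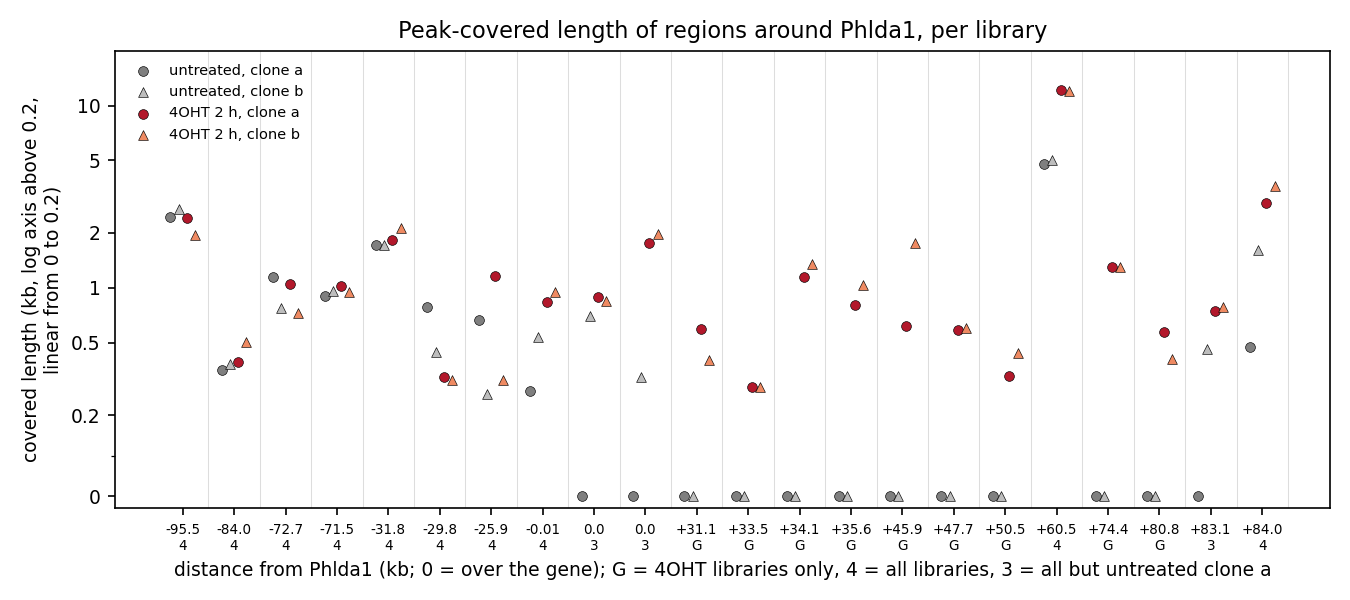
Covered length (kb) of single regions in the 4 libraries, by distance from Phlda1 (kb, negative towards Nap1l1; the axis is linear below 0.2 kb and logarithmic above). G marks the 9 gained regions, at 0 in both untreated libraries, 4 the 10 regions called in all libraries and 3 the regions missed in untreated clone a alone. The region at 60.5 kb has 4.77 and 5.05 kb untreated and 12.1 kb in both treated libraries.

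The limit of 100 kb cut through the group of gained regions. On the higher side the last region inside it lay at 88.1 kb and was called in treated clone b alone, at percentile 39.4. The first one outside lay at 110.03 kb (chr10:111618683-111619757) and was gained, at percentiles 49.6 and 65.2 in treated clones a and b. On the lower side the last inside was at 95.5 kb and the first outside at 115.1 kb, both called in all libraries. From 100 to 140 kb on the higher side peaks covered 0 kb in both untreated libraries and 4.96 and 5.41 kb in treated clones a and b. This stretch held 7 gained regions, at 110.03 to 127.8 kb, the farthest 2 of which, at 127.0 and 127.8 kb, lie over and just past the higher-coordinate end of Gm40763. With them, 16 gained regions lay on that side of Phlda1, from 31.1 to 127.8 kb. Beyond 140 kb and up to 200 kb there was 1 peak, of 200 bp, in treated clone b.

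Treatment separated the libraries more at this locus than over the genome. The Jaccard index, the bases covered in both of 2 libraries as a share of those covered in either, was 0.561 between the untreated and 0.626 between the treated clones, against 0.644 each over the genome. Between treatments it was 0.331 within clone a and 0.3503 within clone b, against 0.598 and 0.575 over the genome. For untreated clone a against treated clone b it was 0.260 (0.513 over the genome), and for untreated clone b against treated clone a 0.388 (0.558). The locus was chosen on this contrast, so the comparison is a description.

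Within 100 kb, 51 protein-coding genes (0.233% of all), Phlda1 and Nap1l1 included, had 9 or more gained regions. Each window holds the gene interval and 100 kb on either side. Longer genes thus had longer windows, and neither counts nor covered lengths were scaled for this. The other 49 fall into 23 separate windows, and 30 of them had 0 lost regions. Of all genes 58.3% had 0 gained regions within 100 kb. The genes whose covered lengths over the 4 libraries were closest to those of Phlda1, by Euclidean distance of log2(covered bp + 500) and leaving out windows shared with it or with each other, were Ube2d3, Tdrd6, Tmem132d, Adarb1 and S100a16. Ube2d3, which encodes a ubiquitin-conjugating enzyme, was nearest at a distance of 0.21, with 16.3 kb in each untreated library and 41.4 and 38.8 kb in treated clones a and b. Its window held 15 gained and 0 lost regions. Tdrd6, a germ cell Tudor domain gene, had 17.2 and 17.8 kb untreated and 35.4 and 39.1 kb treated, with 11 gained and 2 lost regions (distance 0.24). Tmem132d had 13.3 and 16.9 kb untreated and 31.02 and 45.2 kb treated (0.36), the widest spread between treated clones among the 5. Adarb1, an RNA-editing deaminase gene (0.49), and S100a16, of a calcium-binding family (0.56), had 31.1 and 31.9 kb and 31.3 and 31.2 kb in treated clones a and b, below Phlda1.

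Other genes of the pathway were compared on the same measure, covered length within 100 kb, by limma over 17993 genes with a mean of at least 1 kb. Covered length rose at 10 of 52 tested genes of the immediate-early and feedback lists and fell at 0. Of 32 immediate-early genes 4 rose (12.5%) and 0 fell, against 3.63% and 2.37% of all genes tested, and the list's median log2 change was 0.23 against 0.06. Of 20 feedback and ETS genes 6 rose (30.0%) and 0 fell, with a median of 0.29. These lists were set with earlier results of these data known. The change of 1.27 ± 0.12 (SE) at Phlda1, which is not a member of either list here, was smaller than those of Fosl2 and Egr3 in the first list and Spry4 in the second, differences that were not tested.

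Fosl2, which encodes an AP-1 subunit, had 1.05 and 1.34 kb untreated and 5.55 and 9.69 kb treated (log2 change 2.22 ± 0.29 SE, limma adjusted p = 0.0328). Egr3, an immediate-early zinc finger factor, had 4.54 and 7.59 kb untreated and 19.7 and 21.1 kb treated (1.71 ± 0.24, limma adjusted p = 0.0330). In both, each treated library was above each untreated one, as at 31.0% of the 21887 protein-coding genes. Egr2, of the same family, rose by 0.87 ± 0.15 (limma adjusted p = 0.0432), and Arc, an immediate-early gene of neurons, by 0.63 ± 0.11 (limma adjusted p = 0.0424). Spry4, which restrains signalling from receptor tyrosine kinases, had 5.82 and 10.8 kb untreated and 32.6 and 32.5 kb treated (1.97 ± 0.27, limma adjusted p = 0.0330). Dusp4 and Dusp5, phosphatases of MAP kinases, rose by 1.25 ± 0.16 (limma adjusted p = 0.0328) and 1.02 ± 0.10 (0.0291). Spred1, another inhibitor of the pathway, rose by 1.25 ± 0.16 (limma adjusted p = 0.0311). Fos, Jun and Egr1, with log2 changes of -0.11, 0.11 and -0.04, did not pass (limma adjusted p = 0.802, 0.658 and 0.886).

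These calls rest on few libraries. Without untreated clone a, and likewise without untreated clone b, limma called 0 genes of either list and 0 genes in all. Such a fit has 1 untreated library, which is assumed to vary like the treated ones. Without treated clone a, 7 listed genes rose (2.41% of all genes did) and 0 fell (2.27%), and without treated clone b, 7 rose (1.73%) and 0 fell (2.87%). At an unadjusted p under 0.05, 20 listed genes were longer and 1 shorter with all libraries, against 16.9% and 11.8% of all genes. Without untreated clone a these counts were 18 and 2 (12.4% and 7.44% of all genes), and without untreated clone b 14 and 1 (11.8% and 9.07%). Among the upper 50% of peaks by score 5 listed genes rose and 0 fell (1.74% and 1.23% of all genes), and among the top 20000 peaks 1 rose and 0 fell (0.00619% and 0% of all genes). With clone as a replicate block, 14 immediate-early genes rose and 1 fell, and 10 feedback genes rose and 3 fell, against 26.3% longer and 19.7% shorter among all genes.

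**Figure D4:**
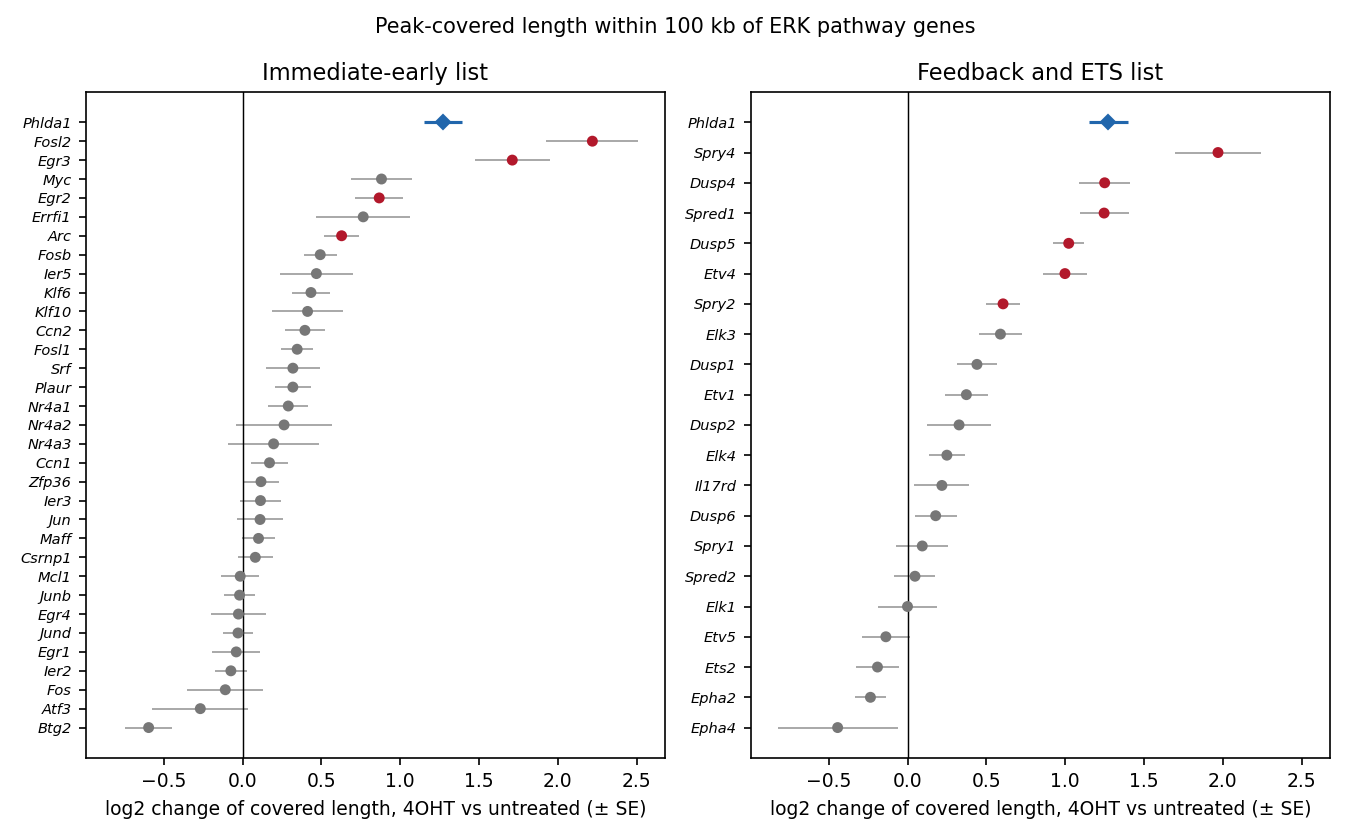
Log2 change of covered length within 100 kb after 4OHT, with its standard error, for each tested gene of the immediate-early list (left) and of the feedback and ETS list (right). Red points passed limma at an adjusted p of 0.05, grey ones did not, and Phlda1 (blue, 1.27 ± 0.12) is drawn in both for comparison without a test. The 10 red points all lie to the right of 0.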

How the data were processed

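The authors deposited 1 peak list per library; the submitters' processing notes name Bowtie2, bedtools, MACS2 and build mm10. The sources used here state no version, threshold or use of inputs. Each deposited list gives a peak's position and a score, a whole number of at least 20 with no stated scale, used here only as a rank within its list. The 4 input libraries were not analysed here.

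Peaks overlapping by 1 bp or more were merged. Distances run to the RefSeq gene interval (GRCm38.p6). Covered length within 100 kb was compared over genes with limma 3.58.1 in R 4.3.3, with trend, on log2(covered bp + 500). Only genes averaging 1000 bp or more entered, with Benjamini-Hochberg at 0.05 and 2 clones per group. The code was also run on simulated data, from which nothing is concluded about the calls reported here. Neighbouring windows share peaks. Clone letters pair the treatments: deviations of clone a correlated at 0.636 between them over genes. The reported fit leaves out this pairing. Its p-values rest on the spread between clones, which limma moderates towards that of other genes. Members and lists were chosen with earlier results of these data known.

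Named were Phlda1, genes within 200 kb, up to 4 called genes per list and direction, and the 5 genes most like Phlda1; Fos, Jun and Egr1 were added after their values were seen.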

Additional observations from a re-analysis of the deposited data

How the results depend on the processing

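The 9 gained regions became 3 when peaks within 1000 bp were merged, which left 18 regions at the locus, and 18 within 200 kb; leaving out 1 library gave 9 to 27, the higher values without a treated clone (27 without clone a, 22 without clone b), where 1 treated library suffices. Lost regions were 1 in the upper 50% by score and 0 to 2 with a library left out. The log2 change at Phlda1 was 1.48 in the top 20000 peaks, 1.72 within 50 kb, 1.44 within 200 kb and 1.17 to 1.38 with a library left out; it was positive in every setting. The 10 pathway genes that rose became 5 in the upper 50% by score, 1 in the top 20000 and 0 to 7 with a library left out, and 24, with 4 that fell, with clone as a replicate block. Calls moved over all genes too: 3.63% rose in the reported fit, 1.74% in the upper 50%, 0.00619% in the top 20000, 0 to 2.41% with a library left out and 26.3% with the block; the cause was not tested. With all libraries in, no gene of the 2 pathway lists fell in any planned setting other than the replicate block. Few of all genes fell either: 2.37% in the reported fit, 1.23% in the upper 50% and 0% in the top 20000. For lists this small, 0 lies near these shares. The other planned settings gave 6 to 11 gained regions, a log2 change at Phlda1 of up to 1.29 and 7 to 11 genes that rose; the setting with no filter still dropped genes without a peak in any library. With no read counts, depth sets an unknown limit on all of this.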

Other observations

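A second stretch with more covered length in treated cells lay beyond the limit on the other side, around the noncoding gene Gm30145, 115.05 to 137 kb from Phlda1 and beyond Nap1l1. From 100 to 140 kb on that lower side peaks covered 3.83 and 3.26 kb untreated and 9.44 and 9.85 kb treated. Both treated libraries were thus above both untreated ones, and how often stretches of this length show that over the genome was not counted. From 100 to 200 kb that side held 11 regions, of which 2 were gained, 3 were called in all libraries and 0 were lost, against 6.20%, 36.4% and 6.26% of all union regions. The gained region at 137 kb (chr10:111367832-111369117) stood at percentiles 67.5 and 75.9 in treated clones a and b. The region beside it, at 135.6 kb, was called in all libraries and stood at 22.2 and 26.6 in untreated and 69.2 and 82.1 in treated clones. At 115.05 kb the percentiles were 63.8 and 52.5 untreated and 89.4 and 92.4 treated. Between these stretches, from 30 to 100 kb on the lower side, covered length overlapped between treatments. These values were looked at after the data were seen and have no test.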
